A study of Homo sapiens with 4 samples.

Results

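The fibroblast collagens described here are 9 genes that encode chains of collagen types I, III, V, VI and XII. They are COL1A1, COL1A2, COL3A1, COL5A1, COL5A2, COL6A1, COL6A2, COL6A3 and COL12A1. Each was examined through the peaks inside it of RNA recovered with HuR over control immunoglobulin. Whether HuR binds within a peak was not tested. A deposited peak was counted for a gene when at least 1 bp of it lay in the gene's hg19 span. By this rule 73 of 84146 peaks belonged to the collagens, 25 of 36216 in the 5 Gy list and 48 of 47930 in the 0 Gy list. The genes were chosen by earlier results on the same lists, in which the COL1A1 peak stood out for its score at the 2 doses. All values that compare the doses are therefore descriptions with no test. The low end of the COL1A1 span is also the first base of its 0 Gy peak.

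The cells were WS1, a human skin fibroblast line, given 5 Gy of X-rays or left at 0 Gy. At each dose RNA was recovered with HuR in 1 library and with control immunoglobulin (IgG) in 1 library, so the 4 groups are HuR at 5 Gy, IgG at 5 Gy, HuR at 0 Gy and IgG at 0 Gy. The time between irradiation and harvest is not given in the labels, and WS1 is 1 line, so nothing speaks to variation between donors, cultures or immunoprecipitations. Each list gives the peaks of the HuR library over the IgG library of the same dose. Expression libraries were not used here, so the fibroblast label was not checked against marker levels.

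Collagens are the main structural proteins of the extracellular matrix that dermal fibroblasts secrete. Types I, III and V assemble into fibrils that give skin its tensile strength, type VI forms beaded microfilaments between cells and fibrils, and type XII sits on fibril surfaces. HuR, the product of ELAVL1, recognises U-rich and AU-rich RNA, often in 3′ untranslated regions, and is known to affect the stability and translation of the mRNAs it binds.

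The collagen spans held fewer peaks and less covered length at 5 Gy than at 0 Gy. The 25 peaks at 5 Gy came to 52.1% of the 48 at 0 Gy (95% interval of counting error 32.3 to 84.1). Over all peaks of the lists this percentage was 75.6%, a value inside the interval. The interval was converted from the Wilson interval for the share of 25 in the 73 collagen peaks of both lists. The collagen peaks covered 16604 bp at 5 Gy and 27081 bp at 0 Gy, or 61.3%, against 91.7% over all peaks. The median peak length was similar in the collagens, with 375 bp at 5 Gy and 372 bp at 0 Gy, while the whole 5 Gy list had a median of 559 bp and the whole 0 Gy list one of 448 bp. In bulk RNA fewer cells carrying a transcript and less of it per cell cannot be told apart, and neither can less RNA recovered with HuR, more with IgG, or a difference in read depth, because a list holds a single score for each peak.

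The difference was uneven among the genes. COL12A1 had 4 peaks at 5 Gy and 13 at 0 Gy. COL6A3 had 1 peak at 5 Gy and 6 at 0 Gy, and COL5A2 had 2 at 5 Gy and 6 at 0 Gy. COL3A1 had 11 peaks at 5 Gy and 14 at 0 Gy, COL5A1 had 5 at 5 Gy and 6 at 0 Gy, and COL1A2 had 1 at 5 Gy and 2 at 0 Gy. COL1A1 had 1 peak at each dose. COL6A1 and COL6A2 had none in either list. Covered length at 5 Gy ran from 21.5% of that at 0 Gy in COL1A2 to 99.6% in COL1A1, with 26.9% in COL6A3, 49.6% in COL12A1, 51.9% in COL5A2, 77.2% in COL3A1 and 99.2% in COL5A1.

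**Figure D1:**
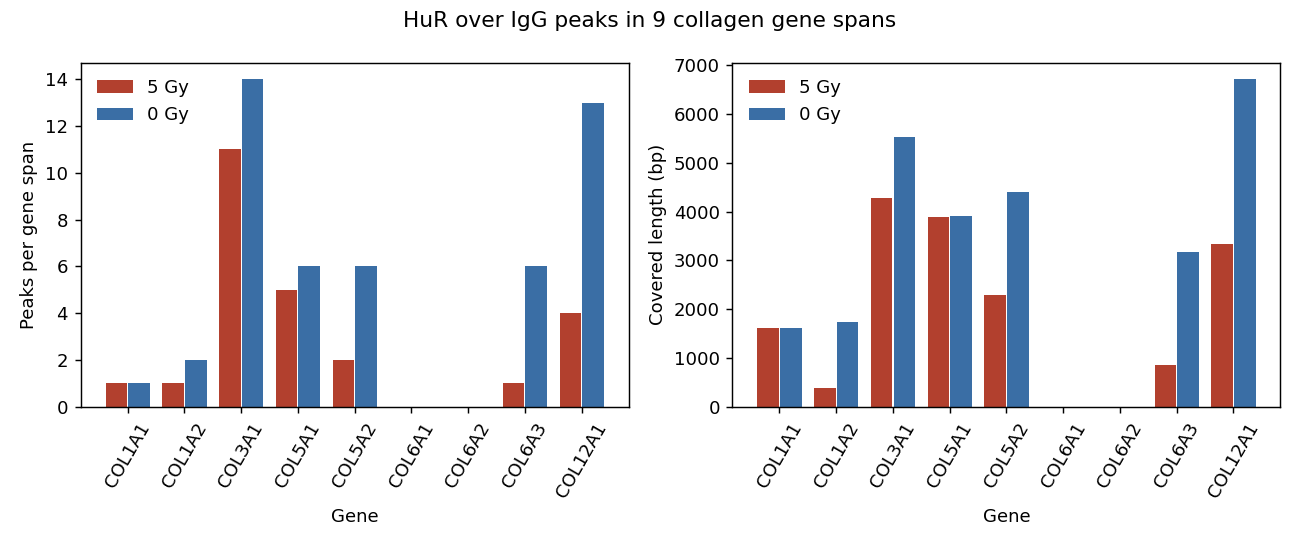
Number of peaks (left) and covered length in bp (right) in each of the 9 collagen gene spans, with 5 Gy bars left of 0 Gy bars and 1 list per dose, so no error bars. COL1A1 and COL5A1 are covered nearly as far at 5 Gy as at 0 Gy, COL12A1 has 4 peaks at 5 Gy and 13 at 0 Gy, and COL6A1 and COL6A2 have none.

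In 6 of the 7 genes with peaks, a peak lay at the 3′ end of the span in both lists, and these peaks held much of the covered sequence. Peaks whose nearer edge lay within 3 kb of the 3′ end made up 8 of 25 peaks and 67.4% of the covered length at 5 Gy, and 10 of 48 peaks and 44.1% of the covered length at 0 Gy. All 8 such peaks at 5 Gy overlapped a 0 Gy peak, and 8 of the 10 at 0 Gy overlapped a 5 Gy peak. Away from the 3′ end, 12 of 17 peaks at 5 Gy overlapped a 0 Gy peak, and 12 of 38 at 0 Gy overlapped a 5 Gy peak. With 12 such peaks in each list, these shares differ only through the numbers of peaks. Such overlap was found for 73.0% of the whole 5 Gy list and 58.1% of the whole 0 Gy list, and shares by position were not computed for other genes. The peaks away from the end were short, with a median of 338 bp at 5 Gy and 366.5 bp at 0 Gy. Without an hg19 annotation they were not assigned to exons, introns or untranslated regions, so distances are given from the ends of the gene spans.

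**Figure D2:**
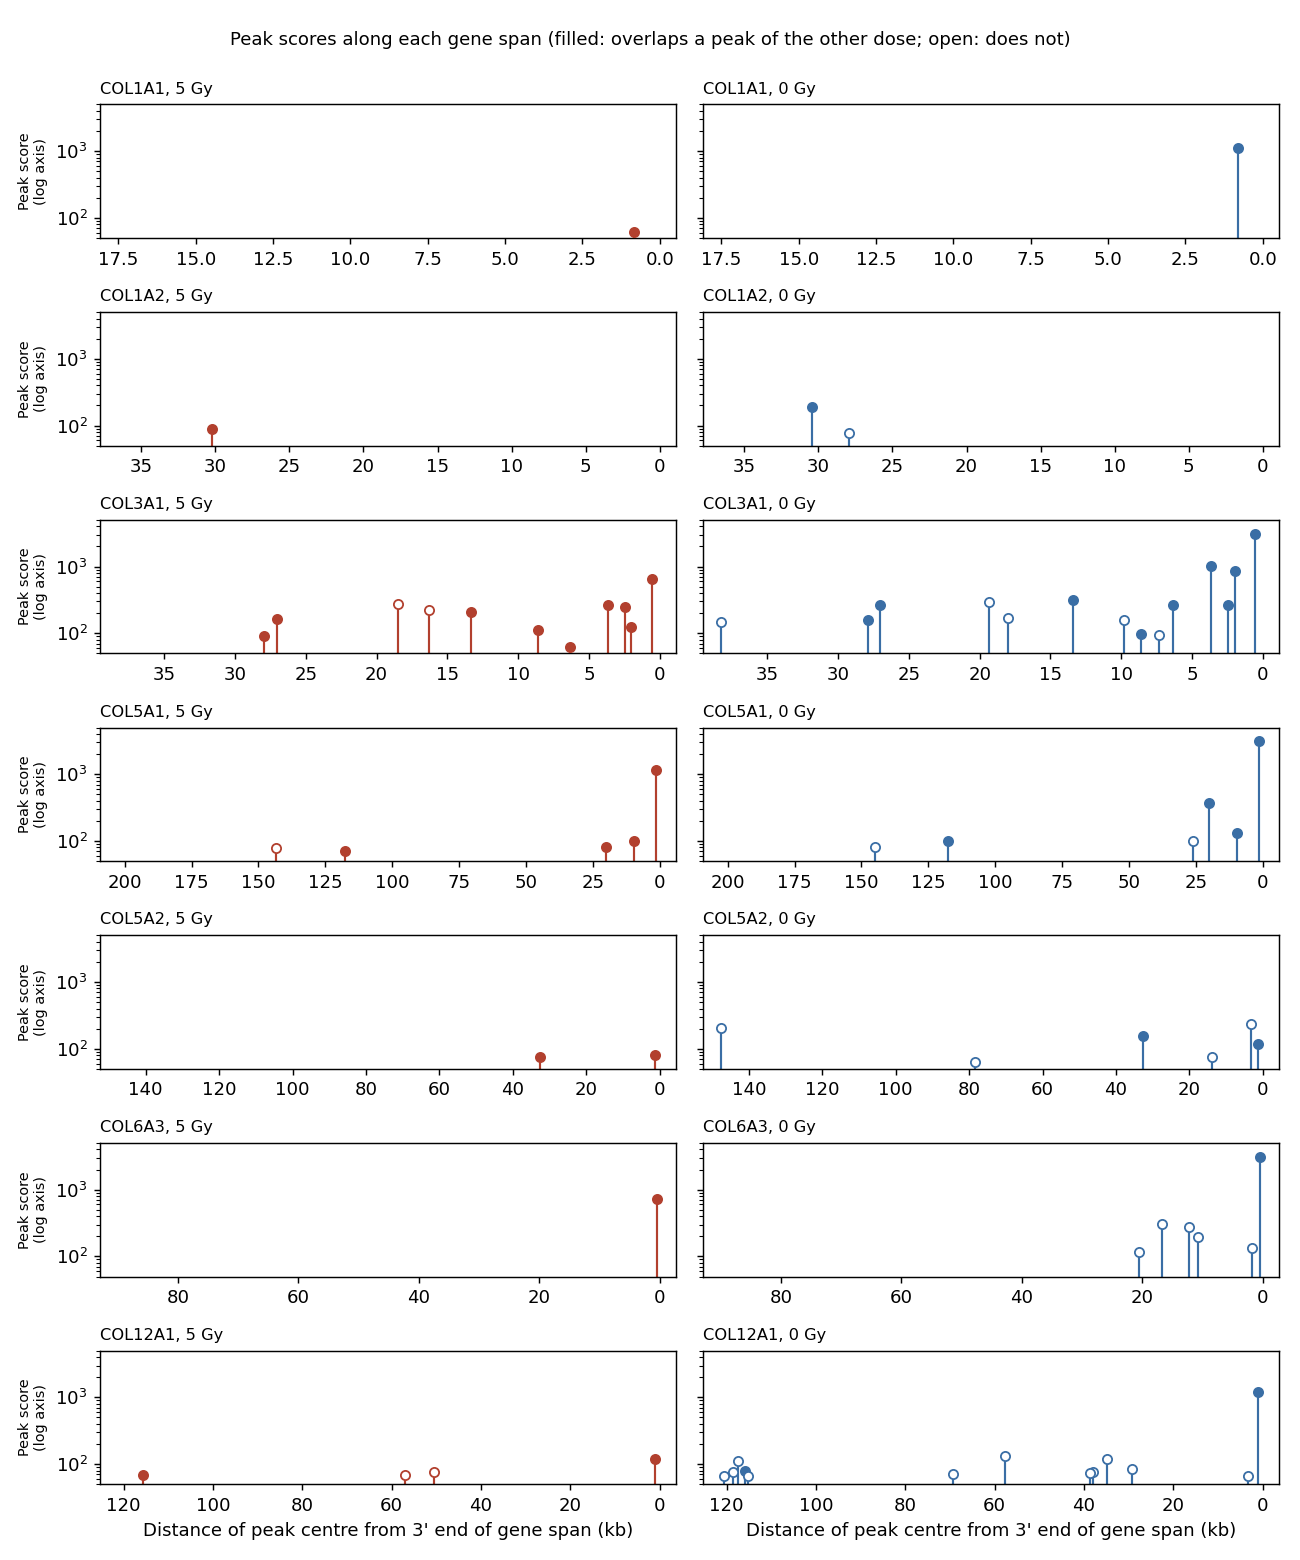
Authors' peak score (log axis) against the distance of the peak's centre from the 3′ end of the gene span in kb, for the 7 collagens with peaks, with 5 Gy in the left column and 0 Gy in the right. Filled circles overlap a peak of the other dose and open circles do not. The highest score of COL1A1, COL3A1, COL5A1, COL6A3 and COL12A1 lies at the 3′ end at both doses, and most of the 28 open circles at 0 Gy lie away from it.

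The peak scores quoted are those the authors deposited. A higher score marks a peak that their caller found less likely under its background, and the lists begin at scores of 60.01 at 5 Gy and 60 at 0 Gy. A score also grows with read depth, which these lists do not give, so scores of both doses are set side by side with the value for all peak pairs. In a pair, 1 peak of each list overlaps the other and no further peak. Across all 19750 pairs, the 5 Gy score was a median of 85.9% of the 0 Gy score. Many of the highest scores are tied at 3100, in 1622 pairs at both doses, and scores above 3100 are not taken as stronger than the tie.

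COL1A1 and COL1A2 encode the α chains of type I collagen, the most abundant collagen of the dermis. The COL1A1 peak covered the same stretch of chromosome 17 at both doses, from 48261463 to 48263066 at 5 Gy (1604 bp) and from 48261440 to 48263049 at 0 Gy (1610 bp), with 1587 bp in common. Its score was 60.69 at 5 Gy and 1101.45 at 0 Gy. The 5 Gy score lay just above the lowest in its list and was 5.51% of the 0 Gy score. Of all 19750 pairs, 3 had a ratio this low or lower, the COL1A1 pair included. The genes were chosen because this peak stood out for its scores, so its rank repeats that choice and is not a separate result. The 5 Gy score was at or above that of 1.01% of the peaks in its own list, and the 0 Gy score at or above that of 88.5%.

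COL1A2 was the gene with peaks but none near its 3′ end. On chromosome 7, a 375 bp peak at 5 Gy (94030118 to 94030492, score 88.13) lay wholly inside a 1416 bp peak at 0 Gy (94029397 to 94030812, score 191.03). This pair began 6245 bp from the 5′ end of the span at 5 Gy and 5524 bp from it at 0 Gy. A second COL1A2 peak, of 327 bp (94032424 to 94032750, score 76.30), was found at 0 Gy only. The peak of COL1A2 nearest to the 3′ end was thus 30052 bp away at 5 Gy and 27794 bp away at 0 Gy, in a span of 36672 bp.

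COL3A1 encodes the chain of type III collagen, which forms fibrils with type I in skin and vessel walls, and it had more peaks than any other member at both doses. Peaks covered 11.1% of its 38374 bp span at 5 Gy and 14.1% at 0 Gy. The peak at the 3′ end on chromosome 2 scored 658.49 at 5 Gy (189876305 to 189877479, 1175 bp) and 3098.14 at 0 Gy (189876318 to 189877475, 1158 bp), and the 5 Gy peak contained the whole 0 Gy peak. The next pairs inward had scores of 125.79 at 5 Gy and 867.26 at 0 Gy (189875294 to 189875647 at 5 Gy, 354 bp, and 189875305 to 189875674 at 0 Gy, 370 bp), 245.93 and 263.54 (276 and 273 bp), and 261.92 and 1016.24 (355 and 389 bp), with 5 Gy given before 0 Gy in each. The 4 pairs thus lay within 4 kb of the gene's end with nearly the same outlines, while their 5 Gy scores ran from 14.5% to 93.3% of the 0 Gy scores.

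Further towards the 5′ end, COL3A1 had 5 more pairs. A peak of 194 bp at 5 Gy and 168 bp at 0 Gy scored 61.90 at 5 Gy and 266.43 at 0 Gy. The peak 8334 bp from the 3′ end at 5 Gy was the only collagen pair with the higher score at 5 Gy, 113.14 against 96.74 at 0 Gy (189868679 to 189869138 at 5 Gy). The other COL3A1 pairs scored 206.02, 162.87 and 90.46 at 5 Gy, where the 0 Gy scores were 311.78, 267.50 and 160.84. In the middle of the gene the lists did not overlap. The 5 Gy list had peaks of 174 bp (189858923 to 189859096, score 278.64) and 189 bp (score 226.08) there, and the 0 Gy list had peaks of 164 bp (189858058 to 189858221, score 292.19) and 212 bp (score 170.49).

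COL5A1 and COL5A2 encode chains of type V collagen, a minor fibril component known to limit fibril diameter. The 3′ end peak of COL5A1 was the longest collagen peak at each dose. On chromosome 9 it ran from 137733971 to 137736680 at 5 Gy (2710 bp, score 1157.69) and from 137733987 to 137736581 at 0 Gy (2595 bp, score tied at 3100). The score at 5 Gy was the highest of any collagen peak in that list. Because the 0 Gy score sits at the tie, no ratio is quoted for this pair. The counts and medians over all collagen pairs below still use its scores as deposited. They do the same for the 3′ end pair of COL6A3, with 3133.69 at 0 Gy. Further inside COL5A1, 3 pairs scored 101.69, 81.90 and 70.26 at 5 Gy, against 130.39, 368.21 and 101.54 at 0 Gy. The most unequal of these, with 81.90 at 5 Gy, had its 5 Gy peak at 137716413 to 137716843 and its 0 Gy peak at 137716404 to 137716699. The highest-scoring unmatched 0 Gy peak of COL5A1 was 173 bp long and scored 101.39 (137710472 to 137710644). By RefSeq spans, 4 genes overlap COL5A1, LOC101448202 and COL5A1-AS1 among them. Other genes overlap the RefSeq spans of COL3A1, COL5A2, COL6A2 and COL12A1. The lists give no strand, so RNA of overlapping genes was not separated in any of these.

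COL5A2 showed a different picture at its 3′ end, where its peak was long but scored low in both lists. On chromosome 2 this peak ran from 189897035 to 189898977 at 5 Gy (1943 bp, score 81.12) and from 189896841 to 189898962 at 0 Gy (2122 bp, score 117.36). A second pair, 32 kb from the 3′ end, scored 75.33 at 5 Gy (189929091 to 189929428) and 155.91 at 0 Gy (189928936 to 189929425). The other 4 peaks of COL5A2 were at 0 Gy only. The highest-scoring of them, 237.46, was a 328 bp peak (189899589 to 189899916) that began 2948 bp from the 3′ end, and an 887 bp peak with a score of 203.86 (190043639 to 190044525) ended 80 bp short of the 5′ end of the 147965 bp span used here. RefSeq gives COL5A2 a longer span of 409214 bp in its newer build, so whether this peak lies at a 5′ end depends on the span chosen.

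COL6A1, COL6A2 and COL6A3 encode the chains that assemble into type VI collagen, and of these COL6A3 alone carried peaks. Its 3′ end peak on chromosome 2 scored 716.60 at 5 Gy (238232648 to 238233500, 853 bp) and 3133.69 at 0 Gy (238232665 to 238233485, 821 bp), with the 0 Gy peak inside the 5 Gy peak. The 5 Gy list held nothing else in COL6A3. The 0 Gy list held 5 further peaks within 21 kb of the 3′ end, with scores of 134.61, 192.60, 276.80, 304.71 and 118.50 from the 3′ end inward. The strongest of these, from 238249075 to 238249808, was 734 bp long and had the highest score of the 28 unmatched 0 Gy peaks in the collagens.

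For COL6A1 and COL6A2, which are neighbours on chromosome 21, the nearest peaks were far away. Past the 3′ end of COL6A2 the nearest peak was 126.1 kb away at 5 Gy and 63.9 kb away at 0 Gy. Before the 5′ end of COL6A1 the nearest was 907.8 kb away at 5 Gy and 685.5 kb away at 0 Gy. Chromosome 21 as a whole carried 278 peaks at 5 Gy and 375 at 0 Gy. A missing peak says only that the threshold of the list was not passed, which depends on the amount of transcript as well as on its recovery with HuR.

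COL12A1 encodes the chain of type XII collagen, a fibril-associated collagen that links fibrils to other matrix proteins. Its 3′ end peak on chromosome 6 had nearly the same ends at both doses, 75794050 to 75796321 at 5 Gy (2272 bp) and 75794039 to 75796352 at 0 Gy (2314 bp). The score was 121.31 at 5 Gy and 1210.98 at 0 Gy. The 5 Gy score was 10.02% of the 0 Gy score, and 40 of all 19750 pairs had a ratio this low or lower. A second pair near the 5′ end scored 68.27 at 5 Gy and 79.03 at 0 Gy.

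The remaining COL12A1 peaks were low in score and differed between the lists. At 5 Gy only, peaks of 169 bp (75844419 to 75844587, score 75.09) and 383 bp (75850958 to 75851340, score 67.85) were found. At 0 Gy only there were 11 peaks with a summed length of 4037 bp, and the strongest of these scored 131.82 (75851375 to 75851886, 512 bp). The 383 bp peak at 5 Gy and this 512 bp peak at 0 Gy lay side by side without overlapping. Of the 11, 4 lay in the outermost 7 kb at the 5′ end, with scores from 65.50 to 109.55.

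Across the collagens, 20 pairs were formed and the 5 Gy score was the lower in 19 of them (95%, Wilson 95% interval 76.4 to 99.1), where 59.1% of all 19750 pairs had the lower score at 5 Gy. The interval covers counting error only and treats the pairs as independent, although 9 of the 20 lie in COL3A1. It is not a test against the value for all pairs. The 5 Gy score was a median of 47.2% of the 0 Gy score in the collagen pairs and 85.9% in all pairs, ties at 3100 included. Among pairs with both scores under 3000 the medians were 56.2% in 17 collagen pairs and 80.0% in all 17346 such pairs. The 5 Gy score was at most 50% of the 0 Gy score in 11 of 20 collagen pairs and in 22.1% of all pairs. Among the pairs with a 0 Gy score of at least 1000 this held for 6 of 6 collagen pairs, which come from COL1A1, COL3A1 (2 pairs), COL5A1, COL6A3 and COL12A1, and for 19.7% of all such pairs. With 0 Gy scores from 1000 to under 3000, where ties play no part, it held for 3 of 3 collagen pairs and 33.0% of all such pairs. Both filters use the 0 Gy score alone, so pairs enter through the dose where they are high, which favours a low ratio. The COL1A1 pair, whose scores led to the choice of genes, passes both filters. Neither count can therefore support a lower score at 5 Gy. These genes were picked with such scores in view and pairs of 1 gene share a transcript, so the percentages for all pairs stand beside the counts and nothing is read from the difference.

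**Figure D3:**
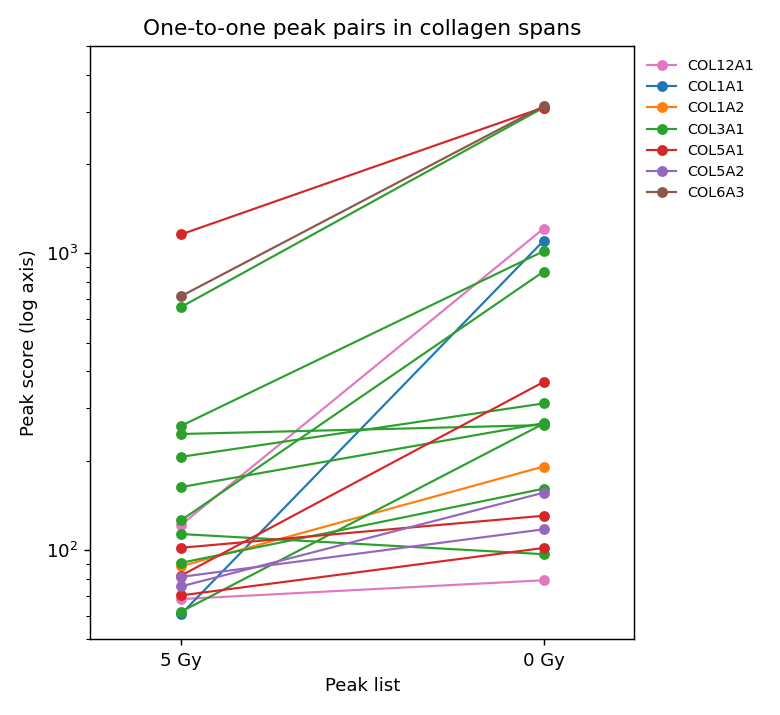
Authors' score (log axis) of both peaks in each of the 20 one-to-one collagen pairs, with the 5 Gy peak on the left joined to its 0 Gy peak on the right and coloured by gene. Every line but 1, in COL3A1, is higher at 0 Gy, and the COL1A1 line and the COL12A1 line from its 3′ end peak are the steepest.

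Paired peaks had similar median lengths at both doses. Because pairs were formed by overlap, some likeness of outline is built in. Paired collagen peaks had a median length of 428.5 bp at 5 Gy and 415 bp at 0 Gy, and in 12 of 20 pairs the longer peak was that of 5 Gy. The 5 Gy length was a median of 101.3% of the 0 Gy length, against 103.2% over all pairs. A median of 95.9% of the 0 Gy peak was covered by its 5 Gy partner, and over all pairs the median was also 95.9%. The COL1A2 pair had the lowest value, 26.5%.

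**Figure D4:**
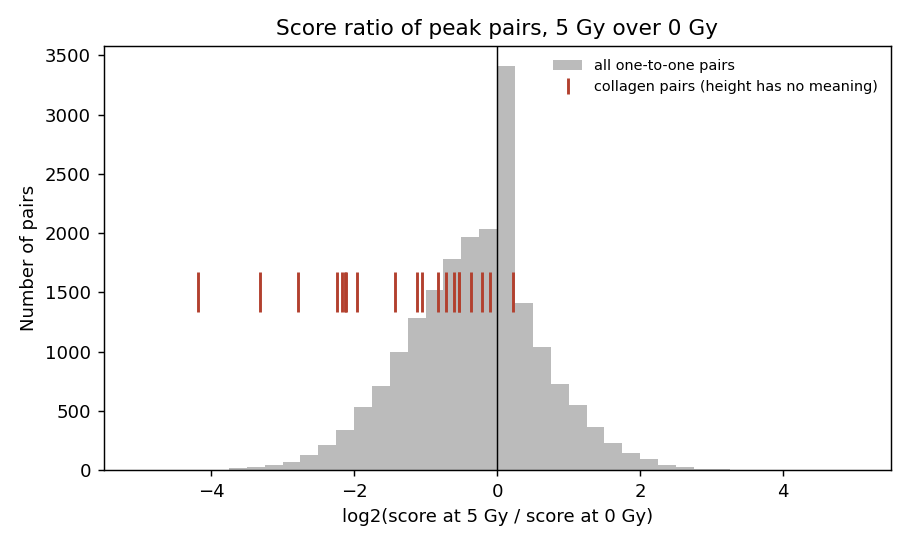
Histogram of the log2 ratio of the 5 Gy score over the 0 Gy score for all 19750 one-to-one pairs (grey), with the 20 collagen pairs as ticks whose height has no meaning. The collagen ticks run from -4.18 (COL1A1) to 0.23 (COL3A1), with a median of -1.08 against -0.22 for all pairs, the bin to the right of 0 holds the 1622 pairs tied at 3100 at both doses, and the tick of the COL5A1 3′ end pair uses its tied 0 Gy score as deposited.

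The same number of collagen peaks, 20, had a counterpart in the other list at each dose. The shares below therefore differ between the doses only through the numbers of peaks, 25 and 48, and that difference is not a separate result. The few 5 Gy peaks also limit the share of 0 Gy peaks that could be matched. Of the 25 collagen peaks at 5 Gy, 20 (80.0%, Wilson 95% interval 60.9 to 91.1) overlapped a 0 Gy peak, against 73.0% of the whole 5 Gy list. Of the 48 at 0 Gy, 20 (41.7%, interval 28.8 to 55.7) overlapped a 5 Gy peak, against 58.1% of the whole 0 Gy list. The intervals cover counting error only and treat the peaks of a gene as independent. The 28 unmatched 0 Gy peaks came from COL12A1 (11), COL3A1 (5), COL6A3 (5), COL5A2 (4), COL5A1 (2) and COL1A2 (1). Without COL12A1, 18 of 35 (51.4%) were matched, and without COL3A1, 11 of 34 (32.4%).

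The unmatched 0 Gy peaks were not all near the threshold. Their scores ran from 62.83 to 304.71 with a median of 105.5, and over the whole list the median of unmatched 0 Gy peaks was 87.4. Scores of at least 150 were given to 23 collagen peaks at 0 Gy, of which 8 had no 5 Gy overlap, in COL3A1 (3), COL6A3 (3) and COL5A2 (2), against 15.2% of all 0 Gy peaks of that score. This filter uses the 0 Gy score alone, and the collagens had fewer peaks at 5 Gy that could overlap. Nothing is therefore read from the difference. The 5 unmatched 5 Gy peaks lay in COL3A1 (2), COL12A1 (2) and COL5A1 (1), and 2 of them scored at least 150, both in COL3A1. The unmatched peak in COL5A1 was 232 bp long and scored 78.85 (137592986 to 137593217).

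Within 3 kb of the 5′ end of the spans used there were no peaks at 5 Gy and 4 at 0 Gy, or 3 at 0 Gy without the COL5A2 peak that depends on the span. This count was not made for other genes, and 0 Gy peaks without a 5 Gy overlap were common in the whole list, so nothing particular to the collagens is read from it. The COL3A1 peak reached across the start of the span (189838996 to 189839400, 405 bp, score 147.82). The RefSeq gene LOC105373791 overlaps COL3A1 in part, and its position relative to this peak was not determined. The COL5A2 peak is the 887 bp one given above. The 2 in COL12A1 were weak, with scores of 76.20 and 65.50. No sequence is shown for them.

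Outside the spans, the nearest peaks did not all have the lower score at 5 Gy. Those given here overlapped between the doses, and this comparison was not planned in advance. The remaining nearest peaks lay in another member or did not overlap between the doses, and are not compared. Past the 3′ end of COL1A1, the nearest peak was 11.9 kb away at both doses and scored 1053.36 at 5 Gy and 1364.37 at 0 Gy. Before its 5′ end, 144.4 kb away, the scores were 840.79 at 5 Gy and 1244.07 at 0 Gy. The nearest peak before the 5′ end of COL12A1 scored 1115.73 at 5 Gy, 32.2 kb away, and 167.48 at 0 Gy, 31.9 kb away. Before the 5′ end of COL3A1, 378.5 kb away, the scores were 751.13 at 5 Gy and 204.31 at 0 Gy. Past the 3′ end of COL1A2, they were 837.12 at 5 Gy, 78.6 kb away, and 721.45 at 0 Gy, 78.4 kb away. Before the 5′ end of COL1A2, they were 1741.73 at 5 Gy and 2894.74 at 0 Gy. Past the 3′ end of COL12A1, they were 2261.36 at 5 Gy and 3100, the tied score, at 0 Gy. Past the 3′ end of COL5A1, they were 89.46 at 5 Gy and 73.74 at 0 Gy. These peaks lie outside the spans and were not assigned to a gene.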

How the data were processed

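HuR and IgG libraries of WS1 cells at 5 Gy and 0 Gy entered through 2 deposited peak lists, 1 per dose, with 1 library per group and no pooling. Reads were trimmed and aligned with cutadapt 1.9.1 and Bowtie2 2.2.4 on hg19, which the submitters' processing notes name without roles. The score of each peak was deposited by the authors, whose peak names begin with MACS. Its version is not given in the sources used here, and a score of 60 is what 10 times the negative log10 gives for the 1e-06 in the list names. The depth of the libraries is unknown. Members, gene spans and lists were chosen with earlier results of these data known. All 9 genes are named. In each, the positions given are the highest-scoring, longest and highest unmatched peak of each list and the pair with the most unequal scores, plus pairs and 5′ end peaks picked after their values were seen. Overlap required 1 bp, and starts count from 1. Strands are those of RefSeq (GRCh38.p14, used also for the names of overlapping genes) for the 4 genes in its promoter table and general knowledge for the others. Counting used Python 3.11.15, pandas 2.3.3 and scipy 1.17.1 (Wilson intervals). On 3000 simulated peaks, all 1828 made shared and all 1728 made pairs were found. Prepared collagen-processing genes were not analysed here for want of hg19 positions.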

Additional observations from a re-analysis of the deposited data

How the results depend on the processing

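With 11 alternative settings for 5 results, 42 values were recomputed. Of these, 33 stayed inside the reported value's 95% counting interval, or equalled it for covered length, and 9 did not. None turned the order of the doses, a check that does not apply to the shares of overlapping peaks. Covered length at 5 Gy, 61.3% of that at 0 Gy, was 45.1% with peaks scoring 100 or more, 37.8% with peaks at or above their list's median score, 71.5% with lists of equal size, 58.9% without COL1A1, 57.2% without COL3A1 and 65.2% without COL12A1. The 95% of pairs with the lower score at 5 Gy became 100% with peaks scoring 100 or more (10 pairs), with peaks at or above that median (7 pairs) and without COL3A1 (11 pairs). The number of peaks at 5 Gy, 52.1% of that at 0 Gy, ran from 37.5% with peaks at or above that median to 67.6% with equal list sizes. With equal list sizes the number of all peaks is the same at both doses by construction. Values for all peaks were not recomputed at the other settings, so those given earlier are not their counterparts. The settings without a gene were chosen after seeing the data. Fewer peaks or genes enter by construction, and any further cause was not tested. No paired analysis was possible because every group is a single library. Read depth is unknown, which limits comparisons of number and score between the doses.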
